A study of Homo sapiens with 4 samples.

Results

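The heat-shock proteins of the cytosol and the mitochondria were examined in the human glioblastoma cell line LN229 when *SOX2* was silenced by siRNA, which are small duplex RNAs that lead the cell to cleave mRNAs of the same sequence. The members were 10 genes, taken by symbol among the 20481 symbols of the array. They are *HSPA1A*, *HSPA1B*, *HSPA8*, *DNAJB1*, *DNAJA1*, *BAG3*, *HSPB1*, *HSPB8*, *HSPD1* and *HSPE1*, and 13 of the 33096 gene probes of each array were annotated to them. The mock knockdown group (2 arrays) received a control siRNA without a target and the *SOX2* knockdown group (2 arrays) an siRNA against *SOX2*, which encodes an HMG-box transcription factor of stem cells. All 4 samples were LN229 cells grown in DMEM, and the study's methods describe the 2 arrays of a group as biological replicates with separate transfections. The treatment text of the labels names another line, SW620, a colon cancer line. No untransfected and no heat-shocked sample was analysed here.

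Heat-shock proteins are chaperones, which bind unfolded or partly folded proteins and keep them from aggregating. HSP70 proteins hold and release their clients in a cycle driven by ATP, J-domain proteins (DNAJ) deliver clients and speed the cycle, and BAG proteins release the nucleotide. Small heat-shock proteins hold unfolding clients without ATP, and in the mitochondrial matrix HSP60 forms a folding chamber that HSP10 closes as a lid. Heat-shock factor 1 (HSF1) switches on many of these genes under stress by binding inverted repeats of GAA in their promoters, and several of them are abundant in tumour cells without stress.

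The promoters are shown because most of them carry that shared element. The members were chosen by name and not by sequence, but as heat-shock genes, so the share with the element is not independent of the choice. In RefSeq's promoter sequences (GRCh38.p14), the 250 bases before the transcription start held the unit GAANNTTC, which reads the same on both strands, in 8 of the 10 member genes, all but *BAG3* and *HSPE1*. The unit was present in 7.05% of all 27305 genes so searched, and the near-identical *HSPA1A* and *HSPA1B* are counted separately among the 8. The longer form GAANNTTCNNGAA, or TTCNNGAANNTTC on the other strand, which contains the short unit, was found for *HSPA8* and *HSPD1* and in 0.56% of all genes. AACAAT, or ATTGTT on the other strand, a core sequence described for the SOX protein SOX9, was found in 0 of the 10 members and in 10.9% of all genes. The consensus that the study reports for SOX2 in LN229 cells, wwTGnwTw (w for A or T), was not searched here. Nor were regions further from the start, so the 0 does not show a lack of *SOX2* sites. A match is a description of the letters in this window and not a site of binding. The stretches around a match are given 5′ to 3′ for the near-identical pair *HSPA1A* (chr6:31815401-31815480, + strand) and *HSPA1B* (chr6:31827597-31827676, + strand), for *HSPA8* (chr11:123062143-123062222, - strand) and *HSPD1* (chr2:197500061-197500090, - strand) with the longer form, and for the small heat-shock gene *HSPB1* (chr7:76302455-76302534, + strand), with the unit GAANNTTC in capitals. Each lies before a start that RefSeq gives for the gene.
HSPA1A: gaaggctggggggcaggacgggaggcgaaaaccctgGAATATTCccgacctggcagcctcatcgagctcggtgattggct
HSPA1B: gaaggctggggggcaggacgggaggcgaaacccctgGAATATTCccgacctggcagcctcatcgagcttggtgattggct
HSPA8: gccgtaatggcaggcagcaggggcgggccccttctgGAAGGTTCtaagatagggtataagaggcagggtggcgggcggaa
HSPD1: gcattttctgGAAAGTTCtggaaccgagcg
HSPB1: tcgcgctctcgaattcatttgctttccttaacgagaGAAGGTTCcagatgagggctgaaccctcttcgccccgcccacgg
Aligned with a shift of 1 base, the upstream sequences of *HSPA1A* and *HSPA1B* were identical at 235 of 249 positions (94.4%).

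All signals below were divided by the 75th percentile of probe signals on the same array, a probe counted as detected on an array where its signal-to-noise ratio (S/N) exceeded 3, and 21256 probes detected on both arrays of at least 1 group were compared. The single *SOX2* probe gave 0.467 and 0.701 in mock knockdown against 0.209 and 0.149 after knockdown, without overlap, at a ratio of 0.307 (log2 change -1.69, SE 0.28, adjusted p = 0.117 by limma with Benjamini-Hochberg over all probes). Its S/N was 5.17 and 13.56 in mock knockdown and 3.17 and 3.06 after knockdown. The knockdown readings were thus close to the detection limit, and the size of the ratio is uncertain. Across probes, which are not independent replicates, Pearson r was 0.986 between the mock arrays, 0.991 between the knockdown arrays and 0.977 to 0.984 across groups. Of 10 astroglial and glioma markers, 9 were detected on all 4 arrays and *AQP4* on 0, and their summed level was 197.5 to 247.7 in mock knockdown and 175.0 to 187.3 after *SOX2* knockdown. Of 10 colon epithelial markers, *VIL1* and *TFF3* were detected on all 4 arrays and *CDH1*, *KRT20* and *CDH17* on 0, with sums of 0.596 to 0.612 and of 0.465 to 0.945. The sum adds probes that are not on a common scale and rests mostly on the brightest ones. *SPARC*, *S100B*, *FABP7* and *TNC* were lower on both knockdown arrays and *OLIG2* and *CD44* higher, while *GFAP*, *NES* and *VIM* overlapped. The lower sum is therefore not a fall shared by the glial markers. Whether it had a part in any result was not tested. In bulk RNA fewer cells of a type and less RNA per cell cannot be told apart.

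No member probe that was detected differed between *SOX2* knockdown and mock knockdown by the 2-fold cutoff or by the test. The test passed no probe of any gene, *SOX2* included, and called 0% of simulated log2 changes of 1 or -1. A lack of calls by it therefore does not show a lack of change. Of the 13 member probes, 12 were detected on all 4 arrays with an S/N of at least 18.5, and the probe of *HSPD1* was not detected on any array. None of these 12 passed the 2-fold cutoff, which 2.61% of all probes passed, and their ratios of replicate means lay between 0.885 and 1.14. By limma 0 of the 12 had an unadjusted p under 0.05, against 17.1% of all probes, the lowest being 0.257. Their adjusted p ranged from 0.619 to 0.986 (limma, Benjamini-Hochberg over all probes), and 0 of the 21256 probes had an adjusted p under 0.05. With arrays scaled to their median 826 probes passed that limit by limma and with a variance trend 287, and 0 of the 12 member probes did in either case. The log2 changes were positive for 6 probes and negative for 6, with a median of 0.01 and a median size of 0.11, beside -0.0012 and 0.19 over all probes. The 95% intervals of the 12 changes reached from a 0.691-fold to a 1.65-fold level, so that a 2-fold change lay outside the interval of each probe. The groups did not overlap in 4 of the 12, 1 higher and 3 lower after knockdown, where 47% of all probes had groups without overlap. In the same 4 probes the change was larger than the difference within either pair of replicates. The share of all probes for that second criterion was not computed, so this count has no background to be read against. On the count of separated probes the scaling mattered. With scaling to the array median, without further scaling and with the values processed by the authors 1 of the 12 was separated (*HSPA1A* probe 210740). The share of all probes then went to 36.8%, 34.7% and 35.3%.

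**Figure D1:**
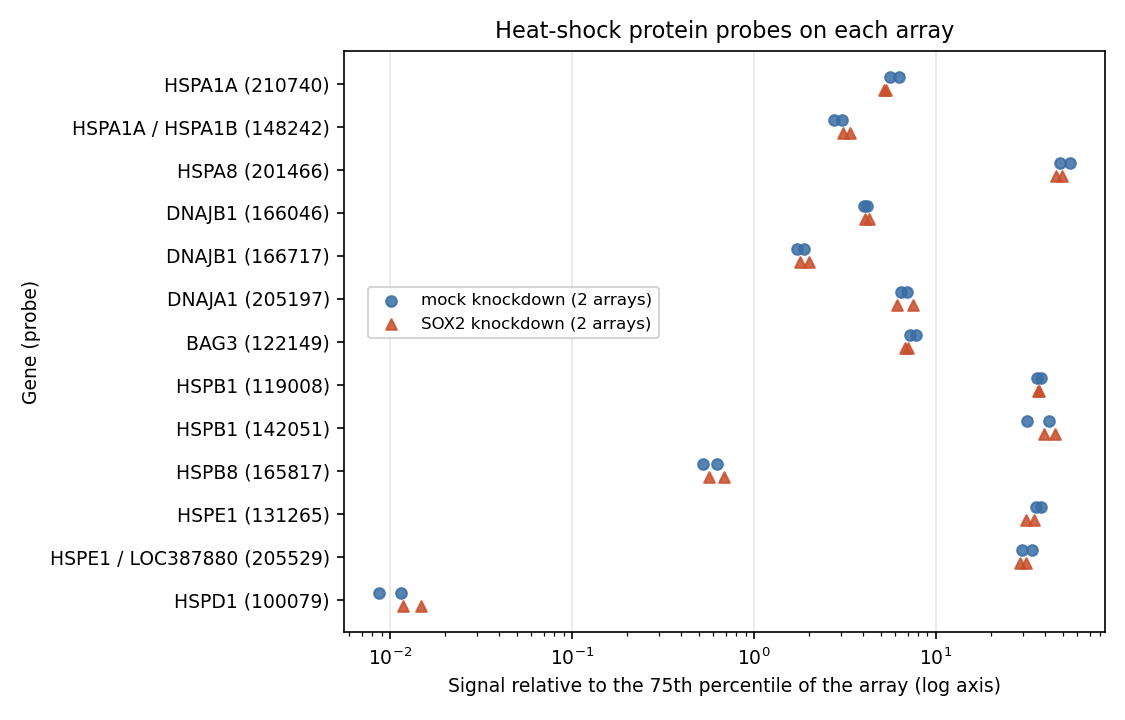
Signal of each member probe on each array, relative to the 75th percentile of that array (log axis), with circles for the 2 mock knockdown arrays and triangles for the 2 *SOX2* knockdown arrays. The symbols of a probe lie close together or overlap, and *HSPD1*, at 0.0087 to 0.0148, was at background; signals of different probes are not on a common scale.

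The inducible HSP70 genes *HSPA1A* and *HSPA1B* lie next to each other and encode nearly the same protein, the main HSP70 made under stress. Probe 210740 (gene ID hCG2019614), annotated to *HSPA1A* alone, gave scaled signals of 6.25 and 5.62 in mock knockdown and of 5.34 and 5.16 after *SOX2* knockdown. The knockdown arrays were the lower 2 of the 4, with a log2 change of -0.17 (SE 0.13, 95% interval -0.53 to 0.18, adjusted p = 0.619 by limma with Benjamini-Hochberg). Probe 148242 (hCG1820593.2), annotated to both genes, gave 2.77 and 3.03 in mock knockdown and 3.08 and 3.39 after knockdown. Here the knockdown arrays were the higher 2, with a log2 change of 0.16 (SE 0.14, 95% interval -0.22 to 0.53, adjusted p = 0.683 by limma with Benjamini-Hochberg).

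The 2 probes of the HSP70 pair thus stood apart in opposite directions under this scaling. With median scaling, without further scaling and with the authors' processed values, which are nearly 1 scaling, the groups of probe 148242 overlapped. The gene ID of probe 210740 is shared by a probe annotated to *NSFL1C*, a gene outside the HSP70 family, and averaging by gene ID gave log2 changes of 0.031 for the first and 0.16 for the second. Within an array the log2 ratio of the first to the second probe was 1.17 and 0.89 in mock knockdown and 0.80 and 0.61 after *SOX2* knockdown, a difference of -0.33 between the group means. The groups did not overlap, and with 2 arrays against 2 an exact two-sided permutation test cannot give a p below 0.333. The mock arrays alone differed by 0.29 in this ratio, and a ratio within an array does not tell which of 2 probes differs. The files give no probe sequences, so which of the near-identical transcripts each probe binds was not tested.

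*HSPA8* encodes the constitutive HSP70 of the cytosol, which also uncoats clathrin vesicles and serves chaperone-mediated autophagy. Its probe gave 48.4 and 54.7 in mock knockdown and 49.4 and 45.9 after *SOX2* knockdown, with overlapping groups. The log2 change was -0.11 (SE 0.14, 95% interval -0.49 to 0.26), smaller than the difference of 0.18 between its 2 mock arrays.

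The J-domain members deliver clients to HSP70, *DNAJB1* (HSP40) as a partner of the stress-induced form. Probe 166046 of *DNAJB1* gave 4.19 and 4.03 in mock knockdown and 4.09 and 4.28 after knockdown, and probe 166717 gave 1.89 and 1.72 against 2.01 and 1.80. The groups overlapped for both probes, with log2 changes of 0.03 (SE 0.13) and 0.08 (SE 0.14). *DNAJA1*, a farnesylated J-domain protein, gave 6.41 and 6.94 in mock knockdown and 7.53 and 6.12 after knockdown. Its 2 knockdown arrays lay on either side of the mock arrays, and the log2 change was 0.03 (SE 0.16).

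*BAG3* encodes the nucleotide exchange factor that joins HSP70 to small heat-shock proteins and sends clients to autophagy. It gave 7.18 and 7.73 in mock knockdown and 7.01 and 6.77 after *SOX2* knockdown. The knockdown arrays were again the lower 2 by a small margin, with a log2 change of -0.11 (SE 0.13, 95% interval -0.46 to 0.23, adjusted p = 0.77 by limma with Benjamini-Hochberg). *HSPB8*, the small heat-shock protein that BAG3 binds, gave 0.523 and 0.624 against 0.681 and 0.569, a log2 change of 0.12 (SE 0.17). The groups of *HSPB8* overlapped, and within each group its arrays differed by 0.25 and 0.26 on the log2 scale, more than the change itself.

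*HSPB1* encodes HSP27, a small heat-shock protein that binds unfolding proteins and actin and is abundant in many tumour lines. Probe 119008 gave 38.0 and 35.8 in mock knockdown and 36.3 and 36.8 after *SOX2* knockdown, the smallest change in size among the 12 probes (log2 change -0.01, SE 0.13, 95% interval -0.35 to 0.32). Probe 142051 of the same gene ID gave 31.8 and 42.0 in mock knockdown and 45.1 and 39.2 after knockdown. The low first mock array set this probe apart, the groups overlapped, and its log2 change of 0.20 (SE 0.19, 95% interval -0.32 to 0.72) was the largest in size among the member probes. Without that array the change was 0.0015 and without the second mock array it was 0.40.

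**Figure D2:**
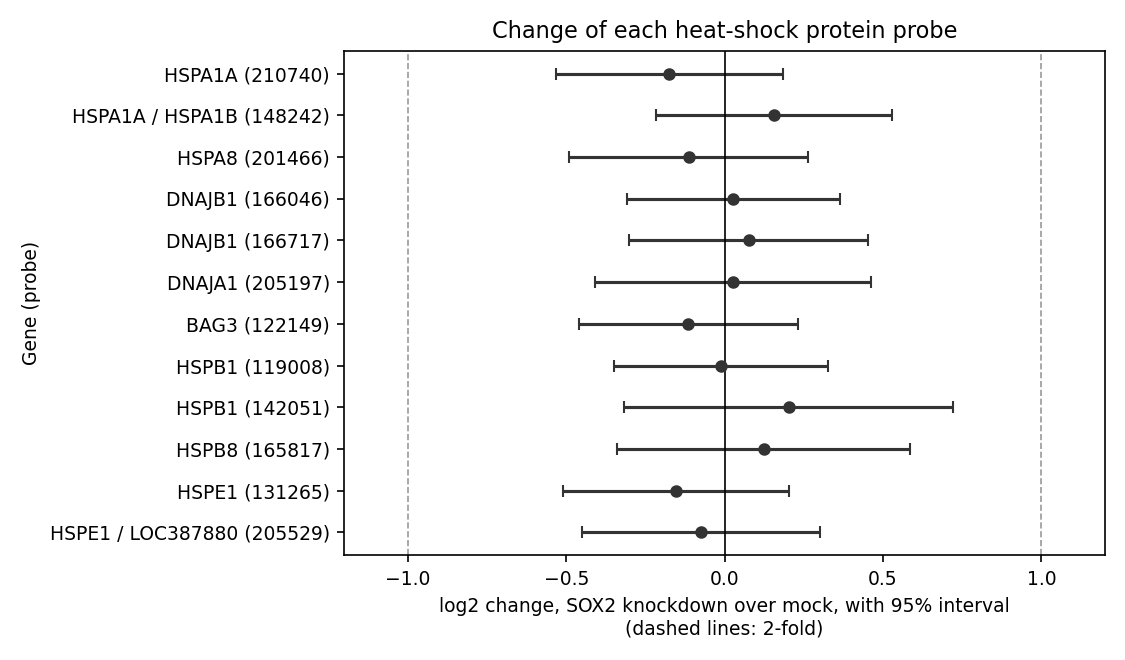
The log2 change of each of the 12 detected member probes (points, horizontal axis, *SOX2* knockdown over mock) with its 95% interval from limma, n = 2 arrays per group. Every interval spans 0 and stays inside the dashed lines at a 2-fold change, the widest being that of *HSPB1* probe 142051.

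In the mitochondrial matrix, HSP60 (*HSPD1*) and its lid HSP10 (*HSPE1*) fold imported proteins, and their genes lie next to each other on opposite strands. *HSPE1* was bright on all arrays. Probe 131265 gave 35.6 and 37.7 in mock knockdown and 34.5 and 31.4 after *SOX2* knockdown, the knockdown arrays being the lower 2 (log2 change -0.15, SE 0.13, 95% interval -0.51 to 0.20, adjusted p = 0.674 by limma with Benjamini-Hochberg). Probe 205529, also annotated to LOC387880, gave 29.9 and 33.9 against 31.2 and 29.2, with overlapping groups and a log2 change of -0.08 (SE 0.14). The HSP60 probe 100079 (hCG2012240) behaved otherwise. Its scaled signals were 0.0116 and 0.0087 in mock knockdown and 0.0148 and 0.0117 after knockdown, with S/N of 0.21 and -0.40 and of -0.55 and 0.04. All 4 readings were flagged in the way that goes with a signal set to its own error. The probe was not well above background on any array, so these arrays give no measure of *HSPD1* in either group and no fold is given.

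**Figure D3:**
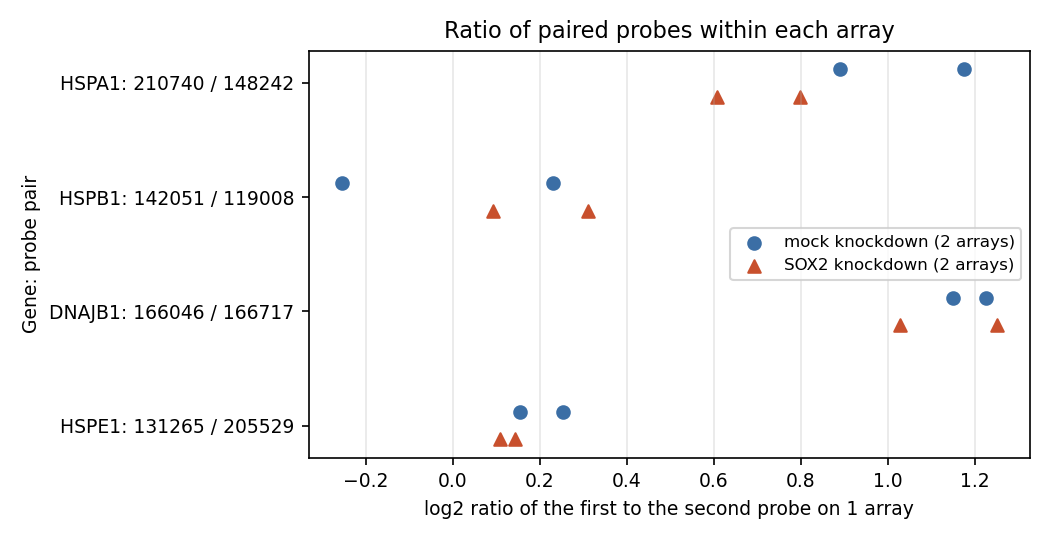
The log2 ratio of 2 probes of a gene on the same array (horizontal axis), with circles for mock knockdown and triangles for *SOX2* knockdown, 2 arrays each. The HSP70 pair and the *HSPE1* pair have groups that do not overlap, with differences of -0.33 and -0.08, while those of *HSPB1* (0.21) and *DNAJB1* (-0.05) do.

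The other 3 members with a pair of probes gave smaller differences of the within-array ratio. For *HSPE1* the log2 ratio of probe 131265 to probe 205529 was 0.25 and 0.15 in mock knockdown and 0.14 and 0.11 after knockdown, groups that were separate by a narrow margin. For *HSPB1* the ratio of probe 142051 to probe 119008 was -0.26 and 0.23 against 0.31 and 0.09. For *DNAJB1* the ratio of probe 166046 to probe 166717 was 1.15 and 1.23 against 1.03 and 1.25. In the last 2 pairs the groups overlapped.

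**Figure D4:**
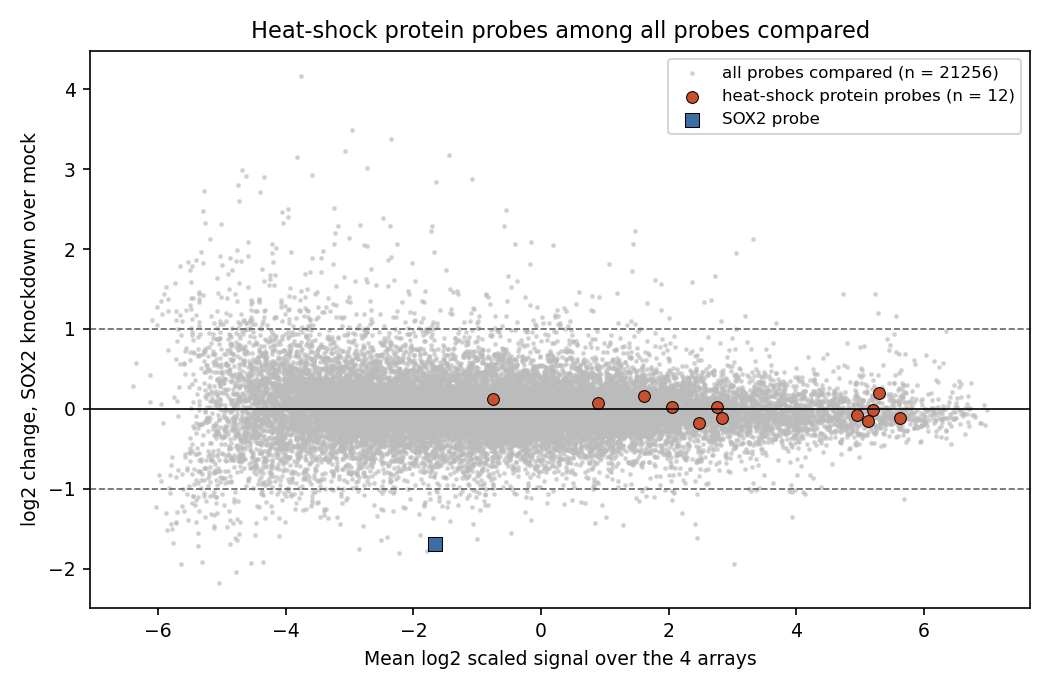
The log2 change of all 21256 probes compared (grey, vertical axis) against their mean log2 scaled signal over the 4 arrays (horizontal axis), with the 12 member probes as circles and *SOX2* as a square. The members lie within 0.20 of no change, and *SOX2* at -1.69 lies below the dashed line of a 2-fold decrease.

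The remaining chaperone system was described by lists of genes, each gene by its brightest detected probe. No gene of any list had an adjusted p under 0.05 (limma, Benjamini-Hochberg over all probes), so the values that follow are given without a call. With median scaling, without further scaling and with the authors' processed values *DDIT3*, *CCT6B* and *HSPB2* passed that limit, all higher after knockdown. Under these nearly identical scalings limma gave all probes a common SE, which is not the spread of each probe. *CCT6B* and *HSPB2* had an S/N over 3 on 3 arrays and were compared only because both arrays of 1 group passed. For these 2 genes the passes are therefore no support for a change. With a variance trend *DDIT3* and *HERPUD1* passed the limit. For reading the counts, 7.9% of all probes had an unadjusted p under 0.05 and were higher after knockdown and 9.16% were lower, 1.57% and 1.04% passed the 2-fold cutoff in these directions, and 21.2% and 25.8% were separated. The lists overlap each other.

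Of the other HSP70, HSP110 and HSP90 chaperones of the cytosol, 8 of 11 genes were compared, with a median log2 change of 0.14. *HSPA4L*, of the HSP110 family, had the lowest p of them, at 0.436 and 0.472 in mock knockdown and 0.652 and 0.597 after knockdown (log2 change 0.46, and 0.53 on its second probe). *HSPA14* had a log2 change of 0.32 and *HSPA12A* one of -0.30. The strictly inducible *HSPA6* was dim, with an S/N down to 3.93, and had a log2 change of -0.34 (SE 0.18). *HSP90AB1*, the constitutive HSP90, had a log2 change of 0.07 (SE 0.15) with overlapping groups, and is named here although it lies outside the rule for named genes. 0 of the 8 passed 2-fold, 1 had an unadjusted p under 0.05, and 4 were separated upward and 2 downward.

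Of the other small heat-shock proteins, 5 of 9 genes were compared, with a median of -0.17. *CRYAB* (αB-crystallin, a partner of HSPB1 in mixed oligomers) gave 3.08 and 3.41 in mock knockdown and 2.01 and 2.08 after *SOX2* knockdown. The knockdown values lay well under the mock values, with a log2 change of -0.66 (SE 0.13, adjusted p = 0.138 by limma with Benjamini-Hochberg). Set against *HSPB1* on the same array, in a comparison chosen after the values were seen, the log2 ratio of *CRYAB* to probe 119008 was -3.62 and -3.39 in mock knockdown and -4.17 and -4.15 after knockdown. The difference was -0.65, and -0.87 against probe 142051, with separate groups in both cases and an exact two-sided permutation p of 0.333, the smallest this design can give. *HSPB9* (-0.51) and *CRYAA* (-0.17) were dim, with an S/N down to 3.69. *HSPB2*, named here after its values were seen, had a log2 change of 1.13 with an SE of 0.78 and an S/N over 3 on 3 arrays. Its ratio of replicate means, 1.74, did not pass the 2-fold cutoff.

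J-domain proteins of the cytosol and nucleus outside the members (21 of 28 compared) had a median of 0.17, which turned to -0.01 with normexp background correction. Of these 0 passed 2-fold, and 5 were separated upward and 7 downward. Among genes detected on every array the largest log2 changes were those of *DNAJC14* (-0.47), *DNAJC5* (0.37, but -0.07 with normexp) and *DNAJB14* (-0.35), whose second probe was of opposite sign, at 0.30. Co-chaperones and BAG proteins (26 of 26 compared) had a median of 0.08, with 13 separated upward and 4 downward. *CHORDC1*, an HSP90 co-chaperone that heat induces, gave 1.81 and 1.997 against 2.76 and 2.66 (log2 change 0.51, adjusted p = 0.187 by limma with Benjamini-Hochberg) and 0.42 on its second probe. The cyclophilin *PPID* (0.42), *BAG2* (0.38) and *BAG1* (0.37) followed in size.

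**Figure D5:**
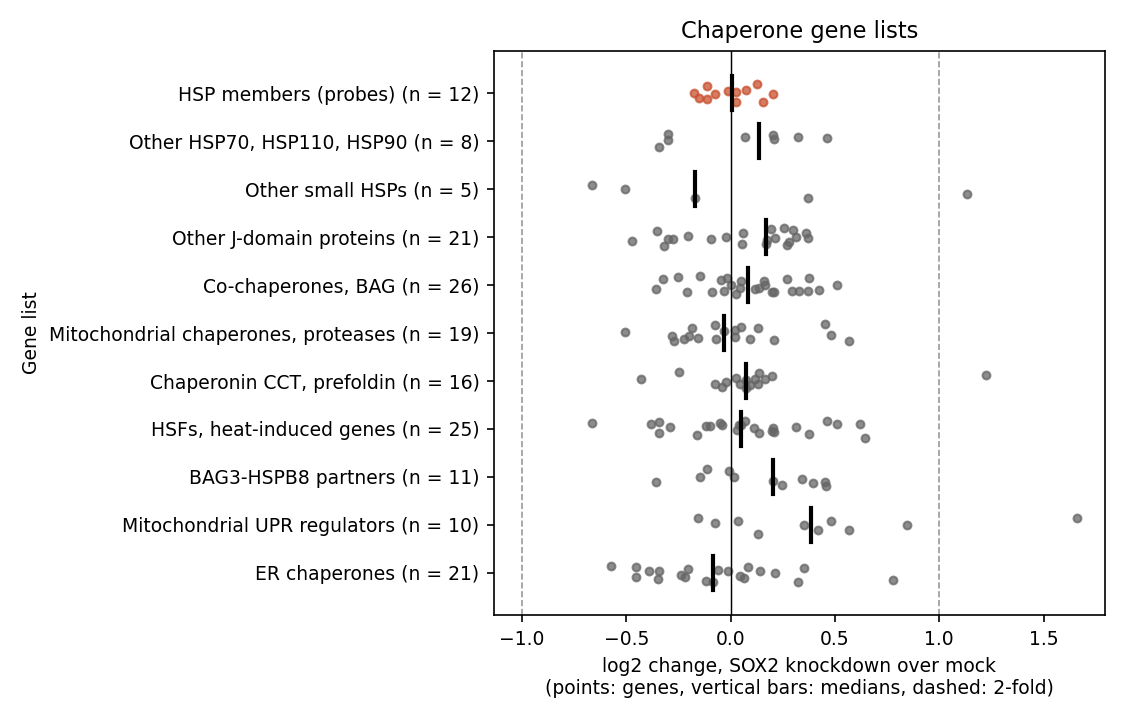
The log2 change (horizontal axis, *SOX2* knockdown over mock) of each gene compared in the chaperone lists, with the 12 member probes in the top line, points for genes, vertical bars for medians and dashed lines at 2-fold. The members form the narrowest band (-0.17 to 0.20), while *DDIT3* (1.66), *CCT6B* (1.22) and the dim *HSPB2* (1.13) lie beyond the dashed lines. *HSPB2* did not pass the 2-fold cutoff, which uses linear means (ratio 1.74). The member probes had an S/N of at least 18.5 and the lists include dimmer probes, so the widths are not compared at like signal.

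Of mitochondrial chaperones and proteases outside the members, 19 of 22 were compared, with a median of -0.03, and 2 had an unadjusted p under 0.05 upward and 1 downward. *HSPA9* (mortalin, the HSP70 of the matrix) gave 9.72 and 10.9 in mock knockdown and 15.4 and 13.4 after *SOX2* knockdown, with a log2 change of 0.48 (SE 0.15, adjusted p = 0.234 by limma with Benjamini-Hochberg). *LONP1*, the Lon protease of the matrix, gave 1.77 and 1.88 against 2.73 and 2.67 (log2 change 0.57, SE 0.13, adjusted p = 0.157 by limma with Benjamini-Hochberg). *GRPEL2*, an exchange factor for *HSPA9*, had a log2 change of 0.45 and *CLPX*, the unfoldase of the Clp protease, one of -0.51. The groups were separated in all 4 genes, which were named for the size of their change. Over the 19 genes of the list 5 were separated upward and 4 downward, where 21.2% and 25.8% of all probes were. Set against *HSPE1* on the same array, again chosen after the values were seen, the log2 ratio of *HSPA9* to probe 131265 was -1.87 and -1.79 in mock knockdown and -1.17 and -1.23 after knockdown. That is a difference of 0.63, and of 0.56 against probe 205529, with separate groups and an exact two-sided permutation p of 0.333.

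Regulators of the mitochondrial unfolded protein response (10 of 10 compared), a list that shares *HSPA9*, *LONP1*, *CLPP* and *YME1L1* with the one before, had a median of 0.39 with 8 separated upward and 0 downward. *DDIT3* (CHOP, a transcription factor of the integrated stress response) gave 3.26 and 4.27 in mock knockdown and 11.9 and 11.6 after *SOX2* knockdown. It passed 2-fold, with a log2 change of 1.66 (SE 0.18, adjusted p = 0.083 by limma with Benjamini-Hochberg). Where arrays were scaled to their median its adjusted p by limma with Benjamini-Hochberg was 3.1e-06. There limma gave all probes a common SE (0.29), so the smaller p does not rest on the replicate spread of *DDIT3*. *CEBPB*, its dimer partner, had a log2 change of 0.84. HSF1 and further heat-induced genes (25 of 28 compared) had a median of 0.05. *HSF1* itself gave 6.17 and 6.63 in mock knockdown and 5.84 and 5.60 after knockdown, a log2 change of -0.16 (SE 0.13), named here although it lies outside the rule for named genes. Beside *CRYAB* and *CHORDC1*, *ZFAND2A* had a log2 change of 0.64 and *HSF2BP* one of 0.62, which was -0.19 with normexp.

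Partners of BAG3 and HSPB8 in selective autophagy (11 of 12 compared) had a median of 0.20. The autophagy receptor *SQSTM1* gave 9.64 and 12.4 against 15.3 and 14.6 (log2 change 0.45), the filamin *FLNC* had one of 0.39 (-0.15 with normexp) and the ubiquitin ligase *STUB1* one of -0.36. The list of the cytosolic chaperonin and of prefoldin (16 of 17 compared) had a median of 0.07. It holds their subunits and also *PDCL3* and *TXNDC9*, which are not subunits. *CCT6B* passed 2-fold at 0.0479 and 0.0567 against 0.126 and 0.117 (log2 change 1.22, and 0.33 with normexp), with an S/N of 2.79 on 1 array, and *PFDN6* (-0.43), *PFDN5* (-0.25), *CCT4* (0.20) and *PFDN2* (0.17) were the next in size. For comparison, a list of chaperones and related proteins of the endoplasmic reticulum (21 of 22 compared) had a median of -0.08, with 4 separated upward and 9 downward. In it *HERPUD1* was at 0.78, *SIL1* at -0.57 and *CALR* and *SDF2L1* at -0.45 each.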

How the data were processed

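RNA of 4 LN229 samples (2 mock knockdown, 2 *SOX2* knockdown) was hybridised to 1-colour Applied Biosystems Human Genome Survey arrays. The deposited scanner files give intensity columns per feature, and per the file headers an S/N column, used here as a score. The normalized signal in the deposited files is linear. A second table holds the authors' processed ratio per probe, divided by the probe's median over the arrays. Its scale was settled from the values. No sample column was left unmapped (0). What the flags mean, and which scanner software was used, are not given in the sources used here.

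Control features and 210 probes with a flag of 5000 or more were left out, arrays were divided by the 75th percentile of their probes, floored at 0.01 and put on the log2 scale, and probes were kept that had S/N over 3 on the 2 arrays of one group or the other. limma 3.58.1 in R 4.3.3 was fitted without a block over all kept probes (two-sided, Benjamini-Hochberg), and the 2-fold cutoff used linear means. Data simulated for this comparison on 21256 probes with log2 changes of 2 gave calls for 52% of the probes, of -2 for 38% and of 1 and -1 for 0%. S/N over 3 was reached by 63.5% to 68.9% of probes per array, and 2 arrays per group limit the precision of every value.

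The members and the lists were chosen with earlier results of these data known. Named genes were all members, *SOX2*, and in each list up to 4 genes with the largest log2 change and S/N over 3 on all arrays, plus genes past 2-fold, a few of which are not reported here. Gene names of the array are old and were matched through RefSeq synonyms (GRCh38.p14). *HSP90AA1* was not matched and is not analysed here. Alternatives changed 1 choice at a time.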

Additional observations from a re-analysis of the deposited data

How the results depend on the processing

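Over 20 alternatives, 240 log2 changes of member probes were recomputed. None had an adjusted p under 0.05 by limma with Benjamini-Hochberg (lowest 0.341), 219 kept their sign and 21 reversed. The alternatives of the floor, the S/N filter, the variance trend and the replicate block left each log2 change as in the main run. Those values could not reverse, and the 219 include them. Median scaling, no further scaling and the authors' table are nearly 1 scaling, so their values are not separate checks. Count of member probes past 2-fold was 0 in each alternative run, with a 1.5-fold cutoff too. Reversed values were small. For *DNAJA1* they were -0.0020 without further scaling, -0.0089 with median scaling, -0.0025 with the assay-normalized signal and -0.079 with normexp. For *DNAJB1* they were -0.0060 (probe 166046, median scaling) and -0.12 (probe 166717, normexp). For *HSPB1* probe 119008 they were 0.028 with quantile normalization, 0.024 with the assay-normalized signal, 0.12 with normexp and 0.10 with probes averaged by gene ID, which also gave 0.031 for *HSPA1A* probe 210740. For probe 205529 of *HSPE1* normexp gave 0.10. The cause was not tested.

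Leaving out 1 array at a time gave ranges of -0.17 to -0.06 for *BAG3*, -0.12 to 0.17 for *DNAJA1*, -0.0048 to 0.061 and -0.0030 to 0.15 for *DNAJB1* probes 166046 and 166717, -0.25 to -0.10 for *HSPA1A*, 0.09 to 0.23 for probe 148242, -0.20 to -0.02 for *HSPA8*, -0.054 to 0.030 and 0.0015 to 0.40 for *HSPB1* probes 119008 and 142051, -0.0059 to 0.25 for *HSPB8*, and -0.22 to -0.09 and -0.17 to 0.015 for *HSPE1* probes 131265 and 205529. Separated member probes then numbered 7 to 9 and separated probes in all 14383 to 17715, since 1 array is easier to separate from 2, and probes past 2-fold numbered 782 to 1192.

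The 4 separated member probes became 1 without further scaling, 1 with median scaling and 1 with the authors' table, *HSPA1A* probe 210740 in each of these nearly identical scalings. The share of all probes was then 34.7%, 36.8% and 35.3%. Quantile normalization also separated 4, with *HSPB1* probe 142051 in place of *HSPE1* probe 131265, and normexp 3 (*HSPA1A* probe 210740, *HSPB1* probe 119008 and *DNAJB1* probe 166046). With an adjusted p under 0.05 there were 0 probes in all, but 776 without further scaling, 826 with median scaling and 758 with the authors' table, where limma gave all probes 1 common SE (0.29). A variance trend gave 287, and requiring S/N over 3 on each array gave 5. The 554 probes past 2-fold became 234 with normexp, 363 with a floor of 0.05, 1373 without an S/N filter, 302 when each array had to pass the S/N limit, 2234 at 1.5-fold and 119 at 3-fold.

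The replicate numbers were not shown to pair the arrays. Over 21256 probes the deviations of same-numbered arrays correlated at -0.484 and those of arrays with the other number at 0.484. With 2 arrays per group these values mirror each other by construction. The deviations were thus shared in part across the numbers, and the cause was not tested. With the replicate block 0 probes had an adjusted p under 0.05, the log2 changes being equal by construction (-0.17 for *HSPA1A* probe 210740). The crossed pairing, chosen after seeing the data, also gave 0.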

Other observations

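Among 15689 probes with a symbol outside the members and lists and S/N over 3 on all 4 arrays, the pattern over the arrays closest to that of *HSPB1* probe 142051 was that of *SLC4A2*, with a root mean square distance of 0.0064 on the log2 scale after each probe was centred on its mean, followed by LOC284288 (0.012) and *CENPA* (0.016). With 4 arrays and so many probes this is a description of likeness alone.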
